A study of Mus musculus with 6 samples.

Results

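Brown and white fat release proteins that act on other organs or on neighbouring cells, and 10 genes for such secreted factors were followed here in brown fat with and without a working Ucp1 gene. They were taken by gene symbol from a table of 29072 genes, and all 10 were present. Of the 10, 6 are known as products of thermogenic fat (Nrg4, Metrnl, Epdr1, Bmp8b, Vegfa and Pm20d1). The other 4 are adipokines, the classical hormones and enzymes of adipocytes (Adipoq, Retn, Lep and Cfd). RNA came from interscapular brown adipose tissue, the heat-producing depot between the shoulder blades, of C57BL/6J mice. There were 3 libraries labelled UCP1(-/-) (knockout libraries 1 to 3) and 3 labelled wildtype, on the same strain background. The knockout is not labelled as specific to a cell type, and the sources used here give no age, sex, housing temperature or pooling of animals. The labels do not say that the libraries came from separate mice, so each p-value reflects only how far these libraries spread, which may be technical.

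Brown adipocytes burn fuel to make heat through UCP1, the mitochondrial uncoupling protein. They also release proteins, often called batokines, that reach the liver, nerves, vessels and immune cells. Adipokines such as adiponectin and leptin are made by white adipocytes in the first place and report the state of fat stores. Several of them are also transcribed in the brown depot.

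Levels are in RPKM, which divides the reads of a transcript by its length and by the depth of the library. Spacing of the low values implied 15800000 to 18000000 reads per library, a similar depth in all 6. Ucp1 itself stood at 375, 389 and 372 RPKM in the knockout libraries and at 3096, 1714 and 3151 RPKM in the wildtype libraries, a log2 change of -2.75. Of 10 general adipocyte markers none passed the test between genotypes (limma). An unadjusted limma p under 0.05 was found for 2 of them, and for 2719 of all 11562 tested genes. The sum of the 10 markers, mostly Fabp4, was 12217 to 13028 RPKM in knockout and 11530.1 to 12942 RPKM in wildtype libraries. Of 13 brown fat markers, Ucp1 and Prdm16 were lower and Elovl3 and Ppara higher in knockout libraries. The call of Prdm16 was lost without knockout library 1, 2 or 3 or wildtype library 1 or 3 (limma adjusted p 0.0815 to 0.123). Elovl3 lost its call without knockout library 1, 2 or 3 or wildtype library 1 (limma adjusted p 0.0608 to 0.129). Ppara lost its call without knockout library 1 or 2 or wildtype library 1 (limma adjusted p 0.0908 to 0.105). After median-of-ratios scaling of the libraries the calls of Elovl3 and Ppara were lost (limma adjusted p = 0.0711 and 0.0691). All 10 skeletal muscle fibre markers were higher, and their sum was 1712, 1723 and 1521 RPKM in knockout against 222, 252 and 53.4 RPKM in wildtype libraries, so wildtype library 3 held the least. In such bulk tissue, fewer cells of a type and less RNA per cell cannot be told apart.

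Among the secreted factors, Epdr1 and Metrnl were higher in knockout brown fat, Nrg4 and Pm20d1 were lower, and the other 6 did not pass or were not tested. Epdr1 was 3.65-fold higher and Metrnl 1.62-fold higher, while Nrg4 was 1.25-fold lower and Pm20d1 1.31-fold lower (ratios of group means, n = 3 each). Vegfa, Adipoq, Retn, Lep and Cfd did not pass the test, and Bmp8b lay under the filter, which asked for a group mean of 1 RPKM or more. Over all 11562 tested genes, 7.67% passed a limma adjusted p of 0.05. The share called higher in knockout was 6.95%, and the share called lower was 0.718%. For the same 4 members, 2 higher and 2 lower, the knockout and wildtype values did not overlap, as held for 29.3% of all tested genes. The median log2 change was 0.17 over the 9 tested members and 0.08 over all tested genes. After median-of-ratios scaling of the libraries, 646 genes were called in place of 887. Of these, 76.5% were higher in knockout, against 90.6% with the values as deposited.

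**Figure D1:**
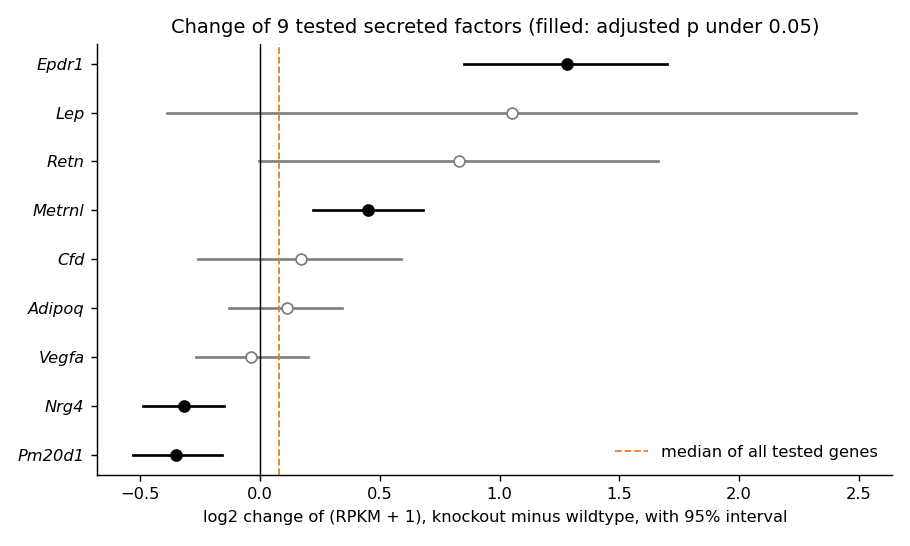
Log2 change of RPKM + 1 between knockout and wildtype brown fat (x axis) for the 9 tested secreted factors, with limma's 95% interval; filled points passed an adjusted p of 0.05 and the dashed line is the median of all tested genes, 0.08. Epdr1 lies farthest to the right at 1.28, and the widest interval is that of Lep, from -0.39 to 2.49.

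In wildtype brown fat the order of levels per transcript length ran from Cfd at 1000.3 ± 158 RPKM (SD, n = 3) through Adipoq at 708 ± 60.6, Vegfa at 132 ± 16.4, Nrg4 at 72.9 ± 3.01 and Retn at 53.8 ± 23.9 RPKM. The lower part of the order held Pm20d1 at 10.9 ± 0.927, Lep at 7.01 ± 7.88, Metrnl at 1.45 ± 0.165, Epdr1 at 1.09 ± 0.529 and Bmp8b at 0.523 ± 0.674 RPKM. Neighbours whose wildtype libraries overlapped were Nrg4 with Retn, Pm20d1 with Lep, Lep with Metrnl, Metrnl with Epdr1, and Epdr1 with Bmp8b. The order was that of the row used for each gene, and other rows could lie higher. Cfd and Adipoq ranked 28 and 44 among the 11562 tested genes by mean level, and Metrnl ranked 9693. In knockout brown fat Retn (93.7 ± 37.7 RPKM) came before Nrg4 (58.2 ± 3.28 RPKM), Lep (11.1 ± 3.83 RPKM) before Pm20d1 (8.34 ± 0.243 RPKM), and Epdr1 (3.98 ± 0.667 RPKM) before Metrnl (2.36 ± 0.292 RPKM). Of these 3 pairs, Lep and Pm20d1 still overlapped in knockout libraries, and the others did not.

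**Figure D2:**
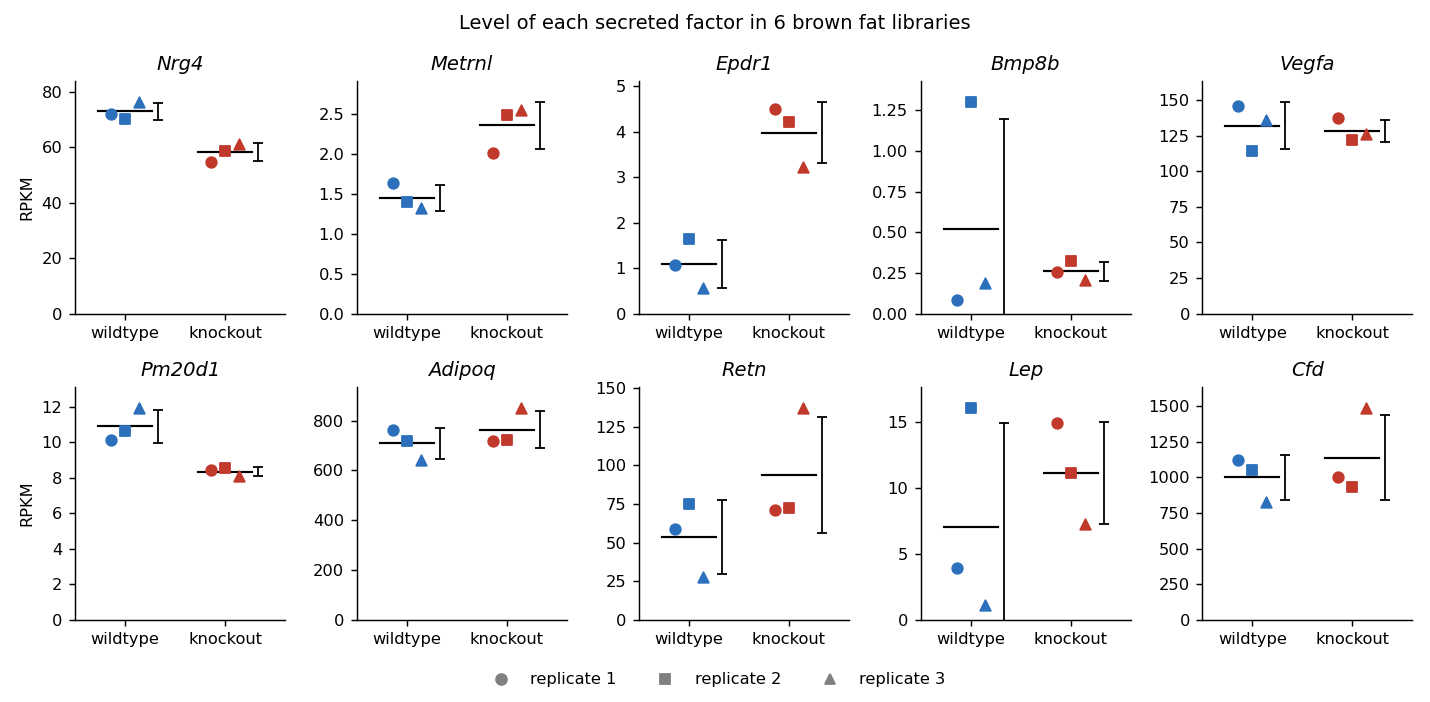
RPKM of each secreted factor (y axes, each from 0 with its own scale) in the 3 wildtype (blue) and 3 knockout (red) libraries; symbols give the replicate number, horizontal lines the mean and bars the SD (for wildtype Bmp8b and Lep the bar would run below 0 and ends at the axis). Nrg4, Metrnl, Epdr1 and Pm20d1 show separate groups, and the other 6 overlap.

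For 3 of the 4 factors that passed, the promoter sequence is shown so that a reader can see the region upstream of the genes that differed. RefSeq sequences of assembly GRCm38.p6 matched 9 of the 10 members by symbol, and Pm20d1 had no entry. Each line gives the 250 bases before the annotated start, 5′ to 3′ on the gene's strand. Nrg4 lies at chr9:55283626-55283875 (minus strand), Metrnl at chr11:121702177-121702426 (plus strand) and Epdr1 at chr13:19619831-19620080 (minus strand). Capitals mark matches, on either strand, to any of 6 short motifs.
Nrg4: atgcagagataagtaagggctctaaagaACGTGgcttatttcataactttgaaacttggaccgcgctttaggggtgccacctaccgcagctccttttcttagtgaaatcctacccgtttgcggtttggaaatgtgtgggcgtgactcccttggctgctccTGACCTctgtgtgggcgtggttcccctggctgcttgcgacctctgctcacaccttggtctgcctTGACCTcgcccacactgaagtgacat
Metrnl: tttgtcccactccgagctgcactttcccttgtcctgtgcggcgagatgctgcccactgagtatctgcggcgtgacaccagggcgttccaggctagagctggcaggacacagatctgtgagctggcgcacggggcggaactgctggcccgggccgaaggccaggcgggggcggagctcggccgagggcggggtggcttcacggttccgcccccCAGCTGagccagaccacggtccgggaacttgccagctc
Epdr1: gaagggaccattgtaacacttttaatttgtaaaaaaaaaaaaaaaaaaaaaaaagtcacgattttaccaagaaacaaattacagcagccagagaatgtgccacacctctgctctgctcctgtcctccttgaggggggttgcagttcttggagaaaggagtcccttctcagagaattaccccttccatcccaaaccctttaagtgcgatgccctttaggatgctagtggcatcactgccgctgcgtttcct
The motifs searched were CAGCTG (the E-box bound by myogenic factors), TGACG (cyclic AMP response half-site), ACGTG (hypoxia response core), AGGTCA (nuclear receptor half-site), TGATGNAA (element of C/EBP and ATF factors) and TATAAA (a core promoter box). TGACG and ACGTG can overlap each other. Among 32851 RefSeq windows of 250 bases, these motifs occurred in 13%, 17.8%, 16.6%, 14%, 3.45% and 12.4%, in that order. The Nrg4 window held 1 ACGTG, beginning 222 bases before the start, and 2 matches to AGGTCA, both on the opposite strand as TGACCT, beginning 90 and 26 bases before the start. The Metrnl window held 1 CAGCTG beginning 38 bases before the start, and no match to the other 5 motifs. Epdr1 had none of the 6 in this window. The GC content was 53.2% for Nrg4, 68.4% for Metrnl and 44% for Epdr1. A match describes letters only, and both the windows and the motifs were chosen after the calls were known.

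Nrg4, neuregulin 4, is an EGF-like ligand that brown fat secretes and that binds ErbB receptors on other tissues, among them the liver. Nrg4 stood at 54.7, 58.6 and 61.2 RPKM in knockout libraries and at 72.1, 70.3 and 76.2 RPKM in wildtype libraries. Every knockout value lay below every wildtype value. This gave a log2 change of -0.32 (SE 0.07, 95% interval -0.49 to -0.15, limma adjusted p = 0.0357). Of its 13 transcript rows, 12 had a mean of at least 1 RPKM. All 12 were lower in knockout, 10 of them without overlap, with ratios of 0.752 to 0.951, though rows of a gene share reads. The call was lost without knockout library 1, 2 or 3 or wildtype library 1 or 3 (limma adjusted p 0.0566 to 0.142), with log2 changes of -0.36 to -0.28.

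The ErbB receptors of neuregulins were scarce in this depot. ErbB4, the receptor for neuregulin 4, is encoded by Erbb4, which stood at 0.234 to 0.323 RPKM in knockout and 0.289 to 0.52 RPKM in wildtype libraries. Erbb3 lay at 0.538 to 0.823 RPKM in knockout and 0.291 to 0.487 RPKM in wildtype, and Erbb2 at 0.493 to 0.666 RPKM over all 6 libraries. All 3 were under the filter and were not tested. Of the other neuregulins, Nrg1 and Nrg3 were listed at 0 in every library, and Nrg2 stood at 0.108 to 0.357 RPKM.

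Pm20d1 is a secreted enzyme that joins fatty acids to amino acids, and its N-acyl amino acid products can uncouple mitochondria without UCP1. It stood at 8.41, 8.54 and 8.07 RPKM in knockout libraries and at 10.1, 10.6 and 11.9 RPKM in wildtype libraries. The groups did not overlap, and the highest value was that of wildtype library 3. Its log2 change was -0.35 (SE 0.08, 95% interval -0.53 to -0.16, limma adjusted p = 0.0367). All 5 of its rows with a mean of at least 1 RPKM were lower in knockout, 4 without overlap, at ratios of 0.758 to 0.765. Rows of this gene share reads as well. Leaving out knockout library 1, 2 or 3 or wildtype library 2 or 3 ended the call (limma adjusted p 0.0561 to 0.113), as did the sum of rows (0.108) and the highest row (0.0583). Its relative Pm20d2 stood at 3.31 to 4.17 RPKM in knockout and 2.58 to 3.32 RPKM in wildtype libraries and did not pass (limma adjusted p = 0.17).

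**Figure D3:**
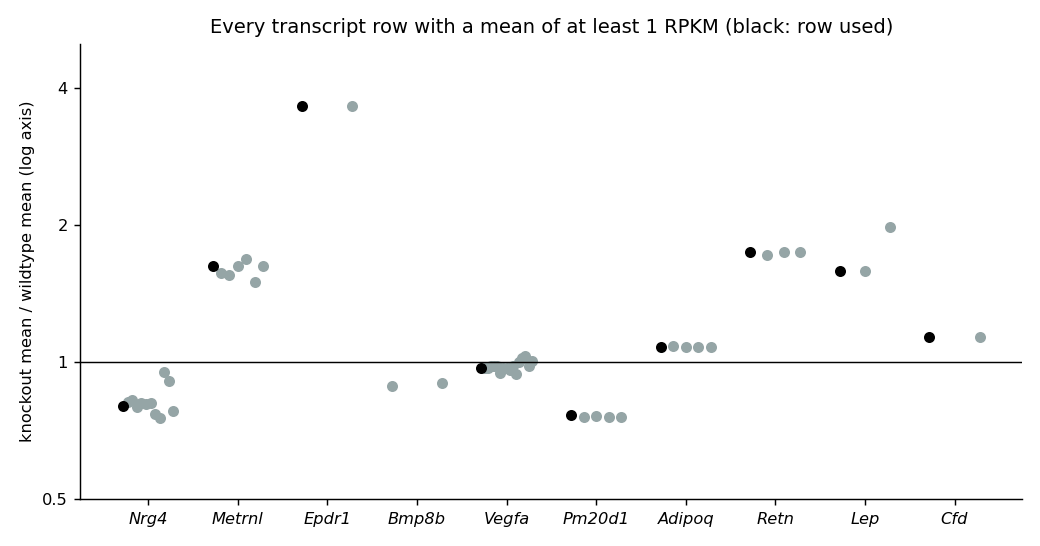
Ratio of the knockout to the wildtype mean (y axis, log scale) for every transcript row of the 10 genes that averaged 1 RPKM or more over the 6 libraries; black points are the rows used, and Bmp8b has none because its RefSeq row lies lower. Rows of Nrg4 (0.752 to 0.951) and Pm20d1 (0.758 to 0.765) lie below 1, those of Metrnl (1.5 to 1.68) and Epdr1 (3.65) above it, and the 17 rows of Vegfa on both sides.

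Epdr1, ependymin-related protein 1, is a small secreted glycoprotein described as a brown fat product. Epdr1 stood at 4.5, 4.22 and 3.23 RPKM in knockout libraries and at 1.08, 1.63 and 0.567 RPKM in wildtype libraries. The lowest knockout value was above the highest wildtype value. The log2 change was 1.28 (SE 0.19, 95% interval 0.85 to 1.70, limma adjusted p = 0.00427). The call held in 13 of 13 alternatives, with log2 changes of 1.08 to 1.87 and adjusted p of 0.00132 to 0.0276. Both of its rows gave a ratio of 3.65, but they had nearly the same value in every library, since rows of a gene share reads.

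Within each genotype Epdr1 was lowest in library 3, and among wildtype libraries it was highest in library 2. The summed muscle markers had the same order within wildtype libraries (222, 252 and 53.4 RPKM) and were also lowest in library 3 of the knockout group (1712, 1723 and 1521 RPKM). This order was not particular to Epdr1. Lep (3.91, 16 and 1.15 RPKM) and Retn (58.7, 74.9 and 27.8 RPKM) had it within wildtype libraries too. Lep was also lowest in library 3 of the knockout group, and Retn was highest there. No muscle marker was listed at 0. Without wildtype library 3 the log2 change of Epdr1 was 1.08 (limma adjusted p = 0.00475). The part of muscle RNA in the Epdr1 result was not tested.

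Metrnl, meteorin-like, is a hormone-like protein of fat and muscle that rises with cold and exercise and acts on immune cells. It stood at 2.02, 2.49 and 2.56 RPKM in knockout libraries and at 1.64, 1.4 and 1.32 RPKM in wildtype libraries. The groups did not overlap. Its log2 change was 0.45 (SE 0.10, 95% interval 0.22 to 0.68, limma adjusted p = 0.0326). All 7 of its rows with a mean of at least 1 RPKM were higher in knockout without overlap, at ratios of 1.5 to 1.68. These rows share reads, and another row repeated every value of the row used. On an Ensembl row with known length the values equalled 73, 85 and 100 reads in knockout and 59, 52 and 50 reads in wildtype libraries. The call was lost without knockout library 2 or 3 or wildtype library 2 or 3 (limma adjusted p 0.0675 to 0.125) and after median-of-ratios scaling (0.0629).

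Metrnl did not share the library order of the muscle markers. Its lowest wildtype value was in library 3, but its highest was in library 1, and in the knockout group library 3 was highest. Macrophage markers, of which 0 of 8 passed (limma; 6 had an unadjusted p under 0.05), summed to 61.7, 83.1 and 80.2 RPKM in knockout and 38.6, 59.7 and 50.4 RPKM in wildtype libraries. Their median log2 change was 0.39. Of all 11562 tested genes, 2719 had an unadjusted limma p under 0.05. The marker with the smallest p was Lyz2, lysozyme of myeloid cells, at 25.7, 29.7 and 30.7 RPKM in knockout and 12.7, 21.3 and 20.6 RPKM in wildtype (limma adjusted p = 0.0604). The part of muscle or macrophage RNA in the Metrnl result was not tested. Its relative Metrn stood at 0.854 to 1.69 RPKM in knockout and 0.898 to 0.948 RPKM in wildtype libraries. Kit, which encodes a receptor described for meteorin-like, stood at 1.49 to 2.77 RPKM in knockout and 1.05 to 2.93 RPKM in wildtype. Neither passed (limma adjusted p = 0.323 for Metrn and 0.809 for Kit).

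**Figure D4:**
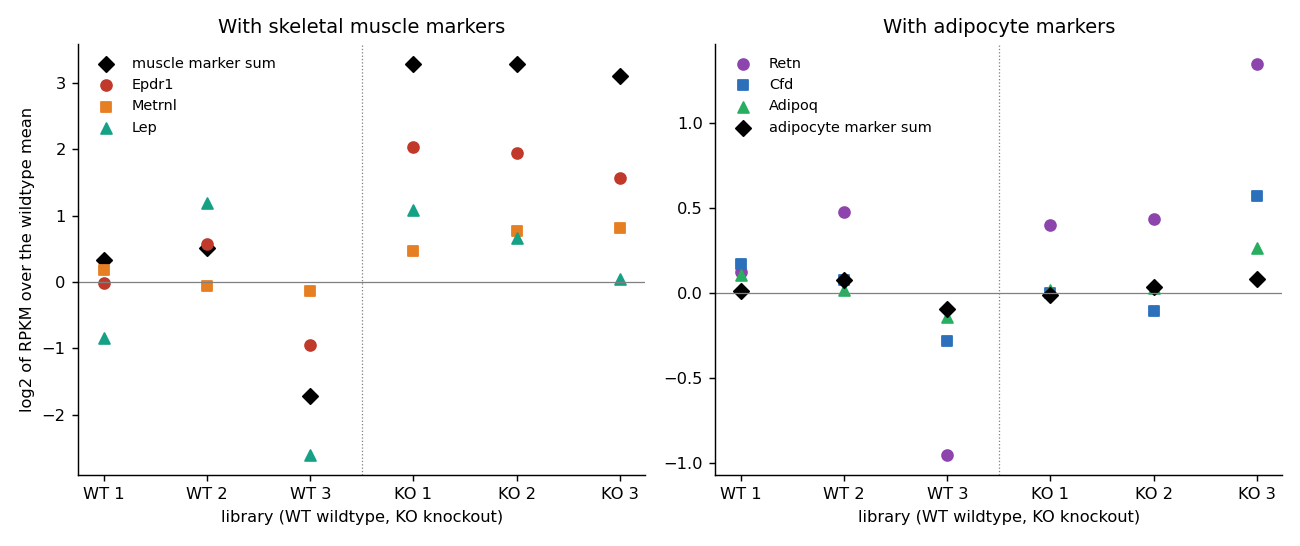
Log2 of the RPKM of a gene, or of the summed RPKM of 10 markers, over its wildtype mean (y axes) in each library (x axes). In the left plot Epdr1, Lep and the muscle marker sum share their order among wildtype libraries, with library 2 highest and library 3 lowest. Retn and the adipocyte marker sum in the right plot have this wildtype order too. Retn, Cfd and Adipoq are highest in knockout library 3 and lowest in wildtype library 3. The adipocyte marker sum, mostly Fabp4, has the same highest and lowest libraries within a narrower range (13028 and 11530.1 RPKM).

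Bmp8b, a BMP ligand of brown fat that heightens the response to sympathetic input, was the lowest of the 10 on the rows used. Its highest row averaged 1.441 RPKM in knockout and 1.631 RPKM in wildtype libraries. Its RefSeq row stood at 0.255, 0.323 and 0.207 RPKM in knockout libraries and at 0.0833, 1.3 and 0.188 RPKM in wildtype libraries. Wildtype library 2 was the highest of all 6, and the other wildtype libraries lay below every knockout library. Without the filter the log2 change was -0.19 (95% interval -0.81 to 0.44, limma adjusted p = 0.753). The highest row gave -0.09 (95% interval -0.48 to 0.31, limma adjusted p = 0.825). An Ensembl row held 21, 27 and 21 reads in knockout and 32, 29 and 15 reads in wildtype libraries. Bmp8a, its near-identical neighbour, was listed at 0 in 5 libraries and at 0.026 RPKM in wildtype library 3, and the sources used here do not say how reads that fit both genes were assigned.

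Genes for some type I receptors were transcribed, as were genes for some signal carriers of the BMP pathway. Acvr1c, the type I receptor ALK7, stood at 13.5, 14.6 and 13.7 RPKM in knockout libraries and at 9.17, 9.63 and 15.2 RPKM in wildtype libraries, which overlapped (limma adjusted p = 0.289). Bmpr1a stood at 9.13 to 10.6 RPKM in knockout and 10.1 to 17.5 RPKM in wildtype. Bmpr1b, another type I receptor gene, lay under the filter at 0.0208 to 0.0712 RPKM in knockout and 0.0115 to 0.0231 RPKM in wildtype. Of 8 tested genes of BMP signalling, 0 passed (limma; 1 had an unadjusted p under 0.05), and their median log2 change was 0.03. Over all 11562 tested genes, 2719 had an unadjusted limma p under 0.05. Among the BMP genes the smallest p was that of Smad5, a carrier of the BMP signal to the nucleus. Smad5 stood at 10.4, 10.5 and 10.3 RPKM in knockout and 9.22, 8.01 and 8.18 RPKM in wildtype (log2 change 0.27, limma adjusted p = 0.0748).

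Vegfa, the growth factor that brings blood vessels to active brown fat, stood at 137, 122 and 126 RPKM in knockout libraries and at 146, 114 and 136 RPKM in wildtype libraries. The knockout values lay within the wildtype range. This is a log2 change of -0.04 (95% interval -0.27 to 0.20, limma adjusted p = 0.875). Without wildtype library 1 it was 0.04 (limma adjusted p = 0.864). Of its 17 transcript rows, 3 were higher and 14 lower in knockout, at ratios of 0.942 to 1.03, and none was without overlap.

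Genes for its receptors were transcribed in both genotypes. Kdr, the main signalling receptor of endothelial cells, stood at 24.1 to 26.8 RPKM in knockout and 21.2 to 27.8 RPKM in wildtype libraries. Flt1, which also binds VEGF-A, stood at 12.7 to 14.3 RPKM in knockout and 14.4 to 16.2 RPKM in wildtype. Nrp1, a co-receptor, stood at 48.7 to 52.1 RPKM in knockout and 51.2 to 63.3 RPKM in wildtype. The groups of Flt1 did not overlap, and those of Kdr and Nrp1 did, but none of the 3 passed (limma adjusted p = 0.215 for Flt1, 0.585 for Kdr and 0.226 for Nrp1). Of 10 endothelial markers 0 passed (limma). An unadjusted limma p under 0.05 was found for 2 of them, and for 2719 of all 11562 tested genes. The endothelial markers summed to 221 to 243 RPKM in knockout and 216 to 246 RPKM in wildtype libraries. Their smallest p was that of Cldn5, a tight junction protein (limma adjusted p = 0.0847).

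Of 15 tested genes of the VEGF and hypoxia list, 2 were higher and 1 lower in knockout, with a median log2 change of -0.00889. Slc2a1, the glucose transporter GLUT1, stood at 3.2, 3.74 and 3.15 RPKM in knockout and at 2.31, 2.18 and 1.94 RPKM in wildtype (log2 change 0.47, limma adjusted p = 0.0183). Figf, which encodes VEGF-D, stood at 2.26, 2.23 and 2.07 RPKM in knockout and at 1.14, 1.67 and 1.18 RPKM in wildtype (log2 change 0.46, limma adjusted p = 0.0395). Egln3, an oxygen sensor that marks HIF proteins for degradation, stood at 5.2, 5.87 and 5.74 RPKM in knockout and at 9.4, 7.14 and 7.56 RPKM in wildtype (log2 change -0.44, limma adjusted p = 0.0391). The groups did not overlap for any of the 3. Slc2a1 lost its call without knockout library 1 or 2 (limma adjusted p = 0.0579 and 0.0812) and with the sum of rows (0.0513). Figf and Egln3 lost theirs without any single library other than wildtype library 2 (0.0825 to 0.133 for Figf and 0.0545 to 0.141 for Egln3). On the highest row neither passed (limma adjusted p = 0.0612 for Figf and 0.0518 for Egln3). After median-of-ratios scaling Figf did not pass (limma adjusted p = 0.0846) and Egln3 did (0.019), and the list then had 1 higher and 2 lower genes.

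The 4 adipokines did not pass the test. Adipoq encodes adiponectin, an insulin-sensitising hormone, and stood at 718, 722 and 849 RPKM in knockout libraries and at 763, 717 and 643 RPKM in wildtype libraries. Knockout library 3 was highest and wildtype library 3 lowest, and the groups overlapped. For Adipoq the log2 change was 0.11 (95% interval -0.13 to 0.34, limma adjusted p = 0.572).

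Adiponectin receptors were abundant. Adipor2 stood at 227 to 256 RPKM in knockout and 225 to 259 RPKM in wildtype libraries, and Adipor1 at 83.5 to 90.1 RPKM in knockout and 77.3 to 83.9 RPKM in wildtype. Cdh13, the adiponectin-binding T-cadherin, stood at 6.89 to 8.81 RPKM in knockout and 6.26 to 6.36 RPKM in wildtype. The groups of Cdh13 did not overlap, but none of the 3 passed (limma adjusted p = 0.946 for Adipor2, 0.388 for Adipor1 and 0.229 for Cdh13).

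Among 8 genes that control adipokine transcription or release, 1 was higher in knockout, and the median log2 change was 0.03. It was Ero1l, an oxidase of the endoplasmic reticulum that helps release adiponectin, at 5.12, 5.82 and 4.48 RPKM in knockout and 3.3, 3.4 and 3.17 RPKM in wildtype libraries. The groups did not overlap (log2 change 0.51, limma adjusted p = 0.015). Without knockout library 1 or 2 or wildtype library 1 the adjusted p was 0.0628, 0.0592 and 0.05, which ended the call. Erp44, the chaperone that retains adiponectin, stood at 12.7 to 14.4 RPKM in knockout and 13.5 to 15.2 RPKM in wildtype. Pparg and Cebpa, transcription factors that drive adipokine genes, stood at 129.6 to 146 RPKM and 182 to 209.6 RPKM in knockout, and at 124 to 153 RPKM and 160.4 to 228 RPKM in wildtype.

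Cfd encodes complement factor D, also called adipsin, the serine protease that starts the alternative complement pathway by cutting factor B. It stood at 999, 931 and 1483 RPKM in knockout libraries and at 1124, 1053 and 823 RPKM in wildtype libraries. Knockout library 3 was highest and wildtype library 3 lowest, while in the other 4 libraries both wildtype values lay above both knockout values. The log2 change was 0.17 (95% interval -0.26 to 0.59, limma adjusted p = 0.639). Without knockout library 3 it was -0.04 (limma adjusted p = 0.907).

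Of 6 tested genes of the alternative pathway, 2 were higher in knockout and 4 did not pass, with a median log2 change of 0.31. Over all tested genes 6.95% were called higher, 29.3% had groups without overlap, and the median log2 change was 0.08. Cfp, properdin, which stabilises the convertase, stood at 5, 6.24 and 5.42 RPKM in knockout and 3.82, 3.6 and 3.23 RPKM in wildtype libraries (log2 change 0.52, limma adjusted p = 0.0139). Cd55, which dissolves the convertase, stood at 2.2, 2.78 and 2.35 RPKM in knockout and 1.53, 1.75 and 1.39 RPKM in wildtype (log2 change 0.43, limma adjusted p = 0.0395). Cfb, factor B, the substrate of factor D, stood at 4.07, 4.39 and 7.08 RPKM in knockout and 2.32, 3.39 and 1.52 RPKM in wildtype. The groups of all 3 genes were separate, but Cfb did not pass (log2 change 0.86, limma adjusted p = 0.0573). C3, the central complement protein, overlapped at 121 to 139 RPKM in knockout and 116 to 151 RPKM in wildtype. Cfp lost its call without knockout library 2 (limma adjusted p = 0.0588) and on the highest row (0.0628). Cd55 lost its call without any single library other than wildtype library 2 (0.0742 to 0.145) and after median-of-ratios scaling (0.0813). The highest row (0.0637) and the sum of rows (0.102) ended the call of Cd55 too.

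Retn encodes resistin, a hormone that adipocytes make in mice and that opposes insulin action. It stood at 71, 72.7 and 137 RPKM in knockout libraries and at 58.7, 74.9 and 27.8 RPKM in wildtype libraries. Wildtype library 2 lay above knockout libraries 1 and 2, so the groups overlapped. The log2 change was 0.83 (95% interval -0.00389 to 1.66, limma adjusted p = 0.214). Without wildtype library 3 it was 0.42 (limma adjusted p = 0.392), and without knockout library 3 it was 0.52 (0.445).

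The receptor list of the secreted factors had 1 call among 15 tested genes, and a median log2 change of 0.06. It was Tlr4, the endotoxin receptor that also binds resistin, at 2.04, 2.37 and 2.47 RPKM in knockout and 1.03, 1.06 and 1.22 RPKM in wildtype libraries. The groups did not overlap (log2 change 0.65, SE 0.09, limma adjusted p = 0.00407), and the call held in 13 of 13 alternatives. Tlr4 is also a gene of macrophages, whose marker sum was 61.7 to 83.1 RPKM in knockout and 38.6 to 59.7 RPKM in wildtype libraries, and their part in it was not tested. Cap1, named as another resistin receptor, stood at 23.7 to 25 RPKM in knockout and 22.1 to 24.5 RPKM in wildtype (limma adjusted p = 0.599). Retnla, a resistin-like relative made by macrophages and fat, stood at 18.5, 23.5 and 17.1 RPKM in knockout and 12.2, 14.6 and 12.2 RPKM in wildtype (log2 change 0.55, limma adjusted p = 0.0332). Its call was lost without knockout library 1 or 2 or wildtype library 1 or 3 (0.0751 to 0.104) and after median-of-ratios scaling (0.0741). Retnlb was listed at 0 in every library.

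Lep encodes leptin, the hormone that reports fat stores to the brain. Lep stood at 14.9, 11.1 and 7.25 RPKM in knockout libraries and at 3.91, 16 and 1.15 RPKM in wildtype libraries. Wildtype library 2 was the highest of all 6, while the other wildtype libraries lay below every knockout library. The log2 change was 1.05 (95% interval -0.39 to 2.49, limma adjusted p = 0.351). Without wildtype library 2 it was 1.85 and passed (limma adjusted p = 0.0203), and without wildtype library 3 it was 0.36 (0.699). An Ensembl row of Lep held 53, 45 and 32 reads in knockout and 14, 45 and 6 reads in wildtype libraries. Lepr, the leptin receptor, stood at 0.124 to 0.23 RPKM in knockout and 0.0442 to 0.0556 RPKM in wildtype, under the filter.

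Wildtype library 2 also had the lowest Ucp1 of its group, 1714 RPKM, and the highest muscle marker sum, 252 RPKM. Its sum of white fat markers, 40.6 RPKM, was the lowest of all 6 libraries, against 55.7 and 60.6 RPKM in the other wildtype libraries and 66.1, 67.8 and 84.3 RPKM in knockout libraries. That sum was mostly Nnmt, a methyltransferase named here after its values were seen, at 41.9, 22.8 and 49.4 RPKM in wildtype libraries. Of the other tested white fat markers, Agt, Slc7a10, Sncg and Hoxc8 were highest in library 2 within the wildtype group, as Lep was, and Mest was highest in library 3. Of 10 such markers, 6 were tested, 2 were higher in knockout, and Tcf21 and Wt1 were listed at 0 in every library. The 2 called were Hoxc8, a positional gene of posterior depots (2.77, 3.21 and 3.42 RPKM in knockout and 1.55, 1.64 and 1.04 RPKM in wildtype, limma adjusted p = 0.00576), and Agt. The median log2 change of the 6 was 0.50. The part of white fat or muscle RNA in the Lep, Retn and Cfd values was not tested.

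**Figure D5:**
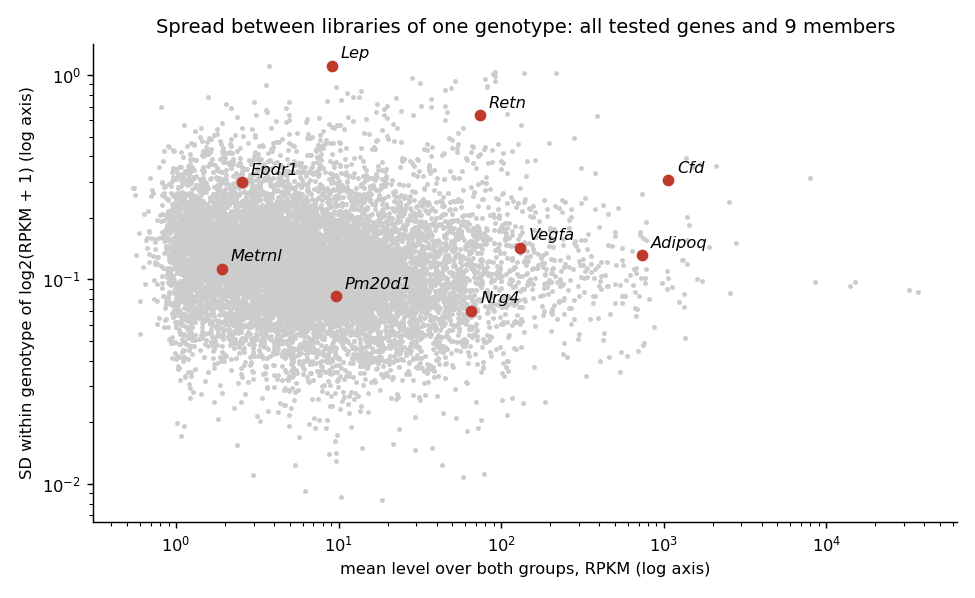
SD of log2(RPKM + 1) within genotype (y axis, log scale) against the mean level over both groups (x axis, log scale) for all 11562 tested genes (grey) and the 9 tested secreted factors (red). Lep (1.11) and Retn (0.638) lie at the upper edge, while Nrg4 (0.0703) and Pm20d1 (0.083) lie below the median of 0.116.

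The factors differed widely in how much they varied between libraries of 1 genotype. The SD of Lep within genotype, 1.11 on the log2(RPKM + 1) scale, ranked 2 among the 11562 tested genes, and that of Retn, 0.638, ranked 47. Cfd (0.306) and Epdr1 (0.299) ranked 519 and 551. Adipoq (0.131), Vegfa (0.143) and Metrnl (0.113) lay near the median of 0.116, and Pm20d1 (0.083) and Nrg4 (0.0703) below it. The added 1 RPKM lowers this SD for genes of low level, such as Metrnl and Epdr1, more than for Adipoq or Vegfa. The highest wildtype value of Lep was 13.9 times the lowest, and that of Retn 2.7 times. In knockout libraries these ratios were 2.06 for Lep and 1.93 for Retn. For Nrg4 this ratio was 1.08 in wildtype and 1.12 in knockout libraries. The smallest changes that passed, those of Nrg4 and Pm20d1, were in the members with the least spread, while the larger differences of Lep and Retn did not pass.

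Among 35 other proteins that fat or its cells secrete, 20 were tested, 1 was higher and 1 lower in knockout, and the median log2 change was 0.17. Rbp4, the retinol carrier of plasma that fat also releases, stood at 43.4, 36.8 and 64.2 RPKM in knockout libraries and at 92.7, 102 and 90.8 RPKM in wildtype libraries. The groups did not overlap (log2 change -1.0, SE 0.18, limma adjusted p = 0.0111), and without knockout library 1 the adjusted p was 0.0532. Agt, the precursor of angiotensin and also 1 of the white fat markers, stood at 1.46, 2.27 and 3.44 RPKM in knockout and at 0.399, 1.07 and 0.167 RPKM in wildtype libraries. These groups did not overlap either (log2 change 1.13, limma adjusted p = 0.0324). Without knockout library 2 or 3 or wildtype library 1 or 3 the call of Agt was lost (limma adjusted p 0.0688 to 0.108). The other 15 genes lay under the filter. Without the filter all 35 were tested, 2 were called higher and 1 lower, and Agt did not pass (limma adjusted p = 0.079). Picked once their values were known, Fgf21, Gdf15, Mstn and Ccl2 were higher in knockout without overlap, and Bmp2 lower. Their knockout means were 0.814, 0.724, 0.434, 0.32 and 0.252 RPKM, in that order. Their wildtype means were 0.259, 0.0377, 0.0536, 0.0764 and 0.472 RPKM.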

How the data were processed

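Total RNA was sequenced after TruSeq RNA Sample Prep kit v2 preparation, per the labels' protocols; CASAVA and bcl2fastq are named in the submitters' processing notes. No aligner, build, annotation or use of strand is given in the sources used here, so a gene and its antisense partner cannot be told apart. RPKM were made by the authors and deposited for 168326 transcript rows, with decimal commas and no unit in its header. The unit was checked on 46002 Ensembl rows of known length: 95.9% to 96.4% of low values were whole reads within 0.1 reads. Rows without a gene identifier (23170, 13.8%) were left out. A single row was kept per gene, RefSeq rows first, then the highest mean.

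Genes averaging 1 RPKM or more in at least 1 group were tested on log2(RPKM + 1), which understates changes of low genes, with limma 3.58.1 in R 4.3.3 and an intensity trend. P-values are two-sided, adjusted by Benjamini-Hochberg over all tested genes, threshold 0.05. The scripts were tested on simulated data. The members, gene lists and tests were chosen with earlier results of these data known. Named genes are the members, Ucp1, up to 5 called genes per list (or, with no call, the 1 of smallest p), and any gene of the lists of receptors, relatives, complement and adipokine regulators. Alternatives changed the scaling, pseudocount, filter, row, trend, replicate number and replicates.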

Additional observations from a re-analysis of the deposited data

How the results depend on the processing

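The 4 calls among the secreted factors became 2 without the filter on low values and 1 with a mean of at least 5 RPKM, which leaves Epdr1 and Metrnl untested. Leaving out 1 library gave 1 to 3 calls. Epdr1 kept its call in 13 of 13 alternatives. Nrg4 lost its call in 7 of 14, Metrnl in 7 of 13 and Pm20d1 in 9 of 14, and all 4 kept their direction. Among the genes named, median-of-ratios scaling ended the calls of Metrnl, Cd55, Col3a1, Elovl3, Figf, Ppara and Retnla (limma adjusted p 0.0629 to 0.0846). Testing without the filter ended those of the same genes and of Pm20d1, Agt, Egln3, Prdm16 and Slc2a1 (0.0529 to 0.0935). Lep, at 1.05, passed only without wildtype replicate 2. The direction turned for Vegfa (0.04 without wildtype replicate 1; -0.14 to 0.04 over the 6 libraries left out) and Cfd (-0.04 without knockout replicate 3; -0.04 to 0.30 over the 6). Over all genes, the 887 calls became 328 with a mean of at least 5 RPKM and 455 to 849 without 1 library; it was 474 without knockout replicate 1 and 455 without knockout replicate 2. Over the other lists, the 26 calls became 14 with a mean of at least 5 RPKM and 15 to 33 without 1 library. Same-numbered libraries did not deviate together (correlations of 0.0919, 0.0384 and -0.0184), and not every library correlated best with its own number. The replicate block gave 775 calls over all genes, 28 over the other lists and 1 among the secreted factors, Epdr1. The cause of these changes was not tested. Read numbers were low for Bmp8b, Lep and Metrnl, 6 to 100 per library on the Ensembl rows given. Epdr1 had no row of known length, so its reads were not estimated. Its wildtype values were low as well, at 1.08, 1.63 and 0.567 RPKM. The part of depth in the results of these genes was not tested.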

Other observations

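Adipoq, Retn, Cfd and Metrnl were each highest in knockout library 3 and lowest in wildtype library 3, an order noticed after the values were seen. It held for 4 of the 9 tested secreted factors and for 645 of the 11562 tested genes (5.58%). Of the 6 tested white fat markers, 4 shared it: Agt, Slc7a10 (an amino acid transporter of white adipocytes), Hoxc8 and Sncg. The naming rule does not cover Slc7a10 and Sncg, which were picked once their values were known. Slc7a10 stood at 6.31, 6.56 and 10.8 RPKM in knockout and 4.77, 6.32 and 4.01 RPKM in wildtype libraries. Sncg stood at 6.48, 6.58 and 9.09 RPKM in knockout and 6.1, 7.49 and 4.2 RPKM in wildtype libraries. Neither passed (limma adjusted p = 0.148 and 0.387). Among 20 other tested secreted factors of fat, 4 shared the order, Agt among them, and 1 of 10 general adipocyte markers did. That marker was Fabp4, named here after its values were seen. Fabp4 stood at 8418, 8497 and 9270.4 RPKM in knockout and 8340.4, 9071 and 7741 RPKM in wildtype libraries. It made up most of the sum of the 10 markers. That sum had the same order, at 12217, 12586 and 13028 RPKM in knockout and 12397, 12942 and 11530.1 RPKM in wildtype libraries. The order was not tested.

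Markers of fibroblasts and fat progenitors, of which 1 of 8 was higher in knockout, summed to 199, 236 and 220.4 RPKM in knockout and 168, 205 and 155 RPKM in wildtype libraries. The gene called was Col3a1, a fibrillar collagen, at 49.7, 64.7 and 58.8 RPKM in knockout and 34.8, 45.6 and 37.1 RPKM in wildtype (log2 change 0.55, limma adjusted p = 0.0353). Its call was lost without knockout library 2 or 3 or wildtype library 1 or 3 (0.0793 to 0.132), after median-of-ratios scaling (0.0846), without the filter (0.0742) and with a mean of at least 5 RPKM (0.0503). Of 6 tested markers of red blood cells and nerve, 0 passed (limma; 0 had an unadjusted p under 0.05), and the smallest p was that of Hba-a1, a haemoglobin chain (limma adjusted p = 0.377).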
